A study of Mus musculus with 33 samples.

Results

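The data described here compare 5xFAD/IRF8KO with 5xFAD microglia from mice aged 9 months, with 3 libraries in each group, which are 6 of the 33 RNA sequencing libraries of the study. Both groups are C57BL/6 mice and both carry the 5xFAD transgenes. These are human amyloid precursor protein and presenilin genes with mutations of familial Alzheimer's disease, expressed in neurons from the Thy1 promoter. The 5xFAD group, whose genotype is labelled 5xFAD/WT, has normal Irf8, and the 5xFAD/IRF8KO group has a knockout of Irf8. The labels name no Cre driver, so the knockout is taken to affect all cells, those of the blood included, and not only microglia. WT and IRF8KO mice of the same strain and age, again with 3 libraries each and without the transgenes, are used for the effect of Irf8 loss outside 5xFAD. All 12 libraries are labelled female.

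By the labels, each library comes from cells of 1 brain that was dissociated without enzymes and sorted by flow cytometry as microglia. Full-length cDNA was amplified by PCR and the authors deposited read counts per gene. Molecular identifiers were not used, so intervals and floors below cover counting error only. Levels are in CPM, the counts of a gene for each 1000000 gene counts of the library, scaled by the trimmed mean of M-values. They are not corrected for gene length, so a ranking of genes by level below is one of read share, not of transcript number. Changes were tested with edgeR's quasi-likelihood test and the Benjamini-Hochberg adjustment over all 14604 genes that passed its filter on low counts, and a gene was called at an adjusted p under 0.05.

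Genes were described in 2 sets, chosen by their level in the 5xFAD libraries alone. The first set holds the 9278 of 54146 genes with a mean of 5 CPM or more in 5xFAD, of which 9276 were tested. The second holds the 38931 genes with 3 counts or fewer summed over the 3 5xFAD libraries. The second set contains transcripts that the sorted 5xFAD cells almost lack, so its members could hardly fall. Between the sets lay 3511 further tested genes. Those of them with only a few counts in 5xFAD could hardly fall either, and their p-values largely restate the low level in 5xFAD.

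IRF8 is a transcription factor of the interferon regulatory factor family, made mainly by blood cells and by the macrophages of the brain. It binds DNA weakly on its own and gains affinity with partners: with PU.1 at composite elements (GGAA, any 2 bases, then GAAA), and with other interferon regulatory factors at interferon-stimulated response elements, which contain GAAA, any 2 bases and GAAA again. It is needed for the development of microglia, dendritic cells and monocytes, and progenitors without it produce neutrophils in excess. In 5xFAD mice, microglia gather around amyloid plaques and take on a disease-associated state in which lysosomal and lipid genes such as Apoe and Cst7 rise and homeostatic genes such as P2ry12 and Tmem119 fall.

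Irf8 itself (ENSMUSG00000041515, chr8:120736358-120756694, GRCm38) had 740.5, 600.5 and 565 CPM in 5xFAD and 99.8, 79.9 and 95.6 CPM in 5xFAD/IRF8KO. All 3 knockout libraries lay far below the 3 5xFAD libraries, and the fall was called (log2 fold change -2.79, SE 0.54, adjusted p = 0.00256). The counts cover the whole gene, and which exons the allele lacks is not given in the sources used here, so the remaining reads do not measure intact message. Batf3, which encodes a leucine zipper partner of IRF8, had 28.2, 24.5 and 27.4 CPM in 5xFAD and 0 CPM in all 3 5xFAD/IRF8KO libraries. Against a floor of 3 counts over the group, its level was at least 299.8-fold lower with an adjusted p of 0.000347.

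Genes scarce in 5xFAD took up a large share of the 5xFAD/IRF8KO counts. Genes at 5 CPM or more in 5xFAD took up 99.2% ± 0.0289 (SD, n = 3) of all gene counts in 5xFAD and 71.8% ± 0.32 in 5xFAD/IRF8KO. Genes with 3 counts or fewer in 5xFAD took 0.0519% ± 0.00986 and 15.5% ± 1.43 of the counts, and the genes between the sets 0.756% and 12.7%. The rule that chose the sets fixed the 5xFAD shares. In libraries that the rule did not use, genes at 5 CPM or more in 5xFAD took 98.7% ± 0.101 in WT and 71.8% ± 7.77 in IRF8KO, and genes with 3 counts or fewer 0.102% ± 0.0305 and 13.1% ± 2.03. In bulk RNA, fewer cells of a type and less RNA per cell cannot be told apart, and this holds for every fall described below.

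Gene counts ranged from 1928739 to 11922037 per library in 5xFAD and from 11723815 to 13077749 in 5xFAD/IRF8KO. Counts in genes made up 77.3% to 78.56% of the reads in 5xFAD and 56.8% to 72.03% in 5xFAD/IRF8KO, with 5.923% to 6.851% and 12.17% to 26.84% of reads mapped to several places. Log CPM of the 14604 genes correlated across genes at 0.962 to 0.976 between 5xFAD libraries, 0.683 to 0.736 between 5xFAD/IRF8KO libraries and 0.47 to 0.567 between the groups. Sex-linked transcripts went against the female label in 4 of the 6 libraries: 5xFAD replicate 3 and all 3 5xFAD/IRF8KO libraries had 156 to 269 CPM of Y-linked transcripts, and 5xFAD replicates 1 and 2 had none. Xist had 76.2, 104 and 6.74 CPM in 5xFAD replicates 1, 2 and 3. In 5xFAD/IRF8KO it had 39.5, 8.67 and 23.5 CPM, beside the Y-linked transcripts of the same libraries. Why both occur together was not tested. The mismatch reached the other groups: the WT libraries had 275 to 307 CPM of Y-linked transcripts and at most 1.65 CPM of Xist, and the IRF8KO libraries had both, with 4.63, 149 and 40.8 CPM Y-linked and 48.6, 5.26 and 184 CPM of Xist. The labels do not state that replicates are separate animals beyond naming each brain, so the p-values measure the spread between these libraries.

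Among genes at 5 CPM or more in 5xFAD, 1038 were lower in 5xFAD/IRF8KO, which is 11.2% of the 9276 tested, and 902 were higher, which is 9.72%. Of all 14604 tested genes 27.8% were called, with 9.72% lower and 18% higher. Counts over gene lists below are to be read beside these 2 shares. The libraries of the groups did not overlap for 1036 of the 1038 lower genes and 875 of the 902 higher genes. A called gene with 3 libraries in each group rarely overlaps, so this is a description. Of the 9276 genes 29.6% lay lower and 17.7% higher without overlap, and of all tested genes 23.2% and 25.4%. Called falls had a median log2 fold change of -2.17 and called rises one of 1.93. The median was -0.21 over all tested genes of the set and 0.235 over all tested genes. Without 5xFAD replicate 1 there were 675 falls and without replicate 2 651, and there were 481 rises without 5xFAD replicate 2 and 499 without replicate 3. With the class of sex-linked transcripts as a covariate there were 639 falls and 544 rises. Proteins are encoded by 93.6% of the genes that fell and 98.4% of those that rose.

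Falls outnumbered rises among the genes with most reads. Of the 86 genes at 1000 CPM or more in 5xFAD, 69 fell and 3 rose, and their median log2 fold change was -1.92. Of the 1536 genes between 100 and 1000 CPM, 510 fell and 117 rose. Below this the balance turned: 276 of 4428 genes fell and 435 rose between 20 and 100 CPM, and 183 of 3226 fell and 347 rose between 5 and 20 CPM. The power to call a change also rises with the count, and the bins use the 5xFAD level that is also the base of the fold change, which can tilt high bins toward falls and low bins toward rises. The shares were not corrected for either, and they are given as a description.

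**Figure D1:**
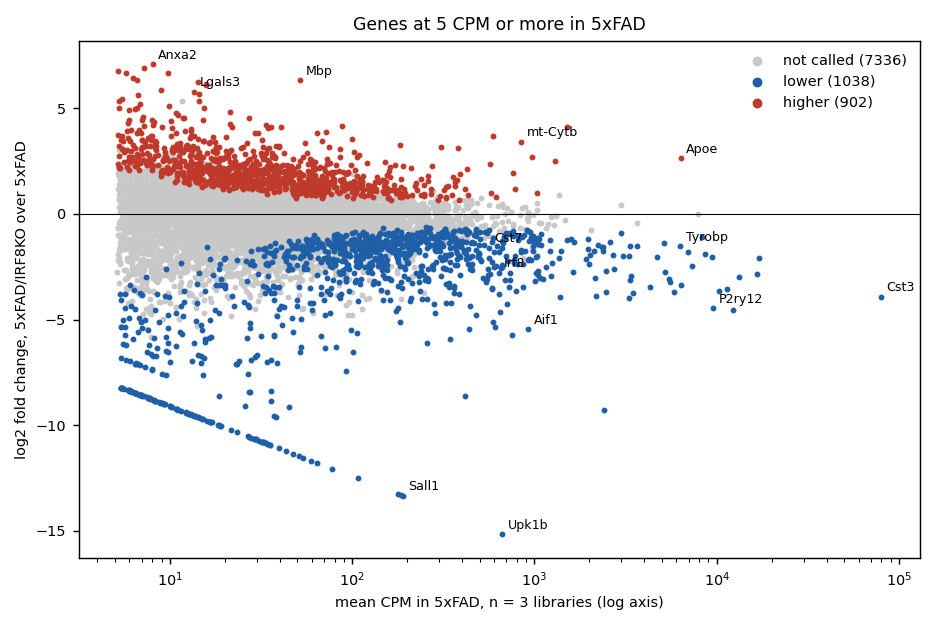
Each point is 1 tested gene with 5 CPM or more in 5xFAD, with its mean level in 5xFAD on a log10 axis (CPM) and its log2 fold change in 5xFAD/IRF8KO against 5xFAD, blue where it was called lower and red where called higher. The sloping line of points at the bottom left holds genes at 0 in every 5xFAD/IRF8KO library, whose fitted fold changes depend on the prior count, and most of the 86 genes at 1000 CPM or more lie below 0.

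The 3 rises among the genes at 1000 CPM or more were Apoe, Lyz2 and mt-Nd1, and Lyz2 and the 2 genes that follow were picked out after their values were seen. Lyz2, the lysozyme of neutrophils and macrophages, had 1196, 1419.5 and 1935 CPM in 5xFAD and 26642, 34369 and 19008 CPM in 5xFAD/IRF8KO (log2 fold change 4.14, SE 0.42, adjusted p = 2.8e-05). Apoe and mt-Nd1 are described with the disease-associated and mitochondrial genes below. The cytoskeletal genes Tmsb4x (log2 fold change -0.02, adjusted p = 0.95) and Actb (-0.42, adjusted p = 0.297) were at the same level bin and were not called.

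Many transcripts were also missing from single 5xFAD/IRF8KO libraries. Of the 9278 genes, 1254 (13.5%) had 0 counts in at least 1 5xFAD/IRF8KO library, although no 5xFAD/IRF8KO library was shallower than a 5xFAD library except replicate 3 of 5xFAD/IRF8KO against replicate 1 of 5xFAD. In 5xFAD it was 5 (0.0539%), a number that the choice of the set holds near 0. Those 5 were the Y-linked genes Eif2s3y and Ddx3y, Hspb3, Gm8399 and Gm6356, named after their values were seen. In libraries that the choice did not use, the number was 1195 (12.9%) in IRF8KO and 57 (0.614%) in WT. In all 3 5xFAD/IRF8KO libraries 114 genes were at 0, and 112 of these were among the called falls. Of the 112, 38 were also at 0 in all 3 IRF8KO libraries.

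**Figure D2:**
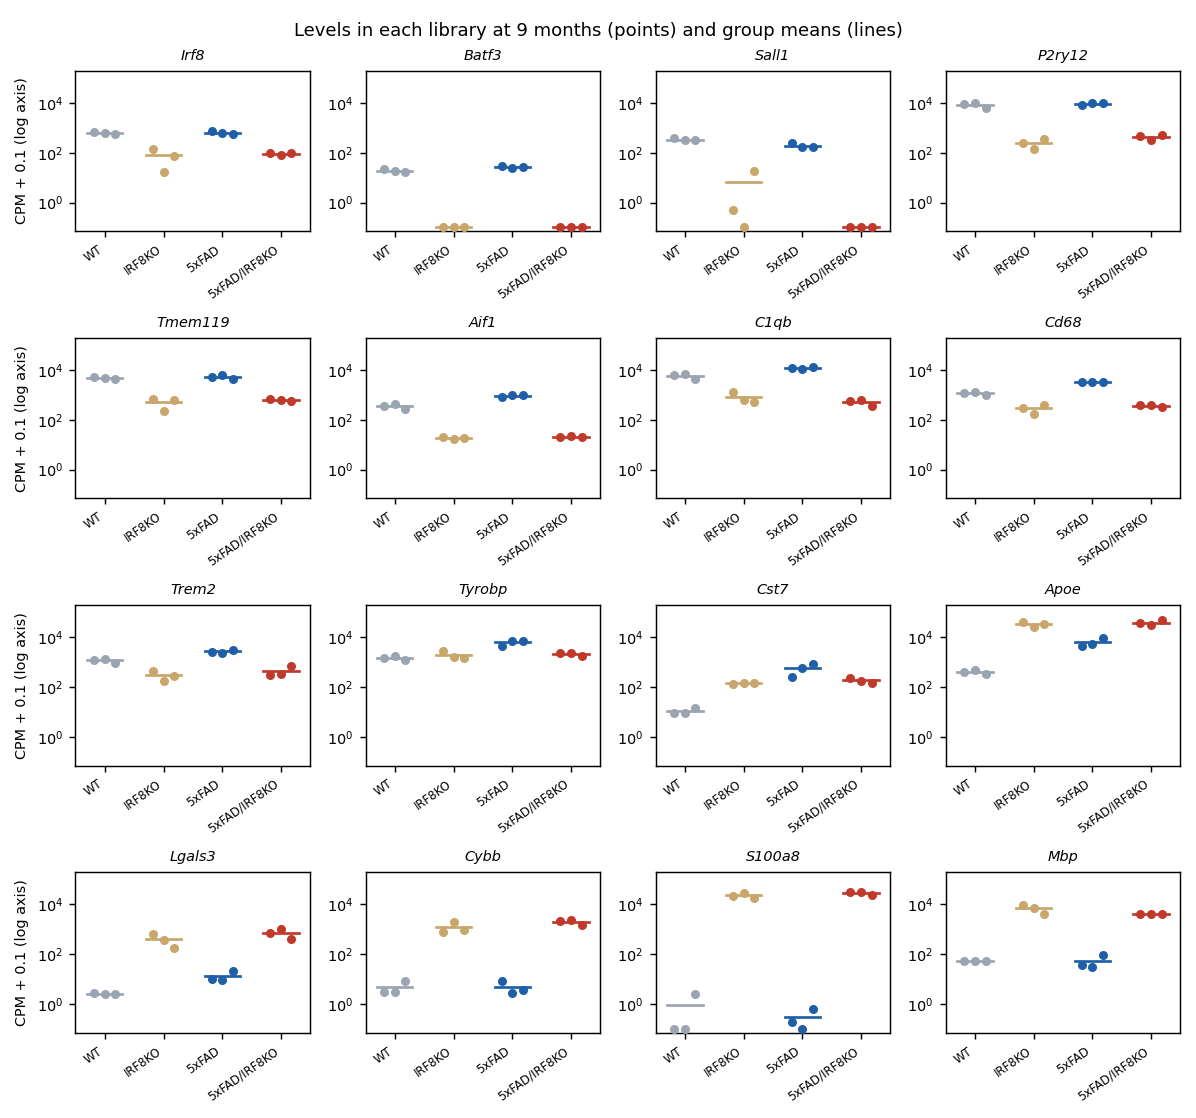
Levels of named genes in the single libraries aged 9 months, WT and IRF8KO beside 5xFAD and 5xFAD/IRF8KO (CPM plus 0.1, log axis), with 1 point for each of the 3 libraries of a group and a line at the mean. Homeostatic genes lie lower in both Irf8 knockout groups, and Apoe and S100a8 lie higher.

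The 12 largest falls were in genes whose transcripts were at 0 in all 3 5xFAD/IRF8KO libraries, and some of them mark microglia. Upk1b, a uroplakin gene typical of brain microglia (chr16:38773184-38800328), had 613, 737 and 644 CPM in 5xFAD and 0 CPM in all 3 5xFAD/IRF8KO libraries, at least 7228-fold lower with an adjusted p of 6.54e-06. Sall1, the zinc finger factor that specifies microglia (chr8:89027235-89044162), had 237, 164 and 167 CPM in 5xFAD and 0 CPM in all 3 5xFAD/IRF8KO libraries, at least 2310.3-fold lower with an adjusted p of 0.00141. Every 5xFAD library expressed both genes and no 5xFAD/IRF8KO library gave a read.

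Slamf8, a receptor of the SLAM family on macrophages, had 126, 82.3 and 113 CPM in 5xFAD and 0 CPM in all 3 5xFAD/IRF8KO libraries, at least 1238-fold lower (adjusted p = 0.00267). Spint1, an inhibitor of serine proteases, had 255, 257 and 23.3 CPM in 5xFAD and 0 CPM in all 3 5xFAD/IRF8KO libraries, at least 2564-fold lower (adjusted p = 0.00033), and 5xFAD replicate 3 stood well below the other 2. The serine protease gene Klk8 (at least 1888-fold lower, adjusted p = 0.000607), the adenosine receptor gene Adora3 (at least 913-fold, adjusted p = 0.000277) and the potassium channel gene Kcnd1 (at least 745-fold, adjusted p = 1.19e-05) were also at 0 in all 3 knockout libraries.

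The other members of the 12 largest falls were P3h2, a collagen prolyl hydroxylase gene, Phf11d, an interferon-induced gene, Mymk, known as a fusion factor of muscle, Pdcd1, which encodes the checkpoint receptor PD-1, and Procr, the protein C receptor gene. All 5 were at 0 in the 3 5xFAD/IRF8KO libraries, with adjusted p-values from 2.34e-05 for P3h2 to 0.0104 for Pdcd1. Reads were counted without regard to strand, so the levels of genes that overlap the span of another annotated gene are uncertain. This holds for 109 of the 274 genes named in the text, where the other gene is in part a predicted gene or a microRNA. Examples are Cx3cr1, Csf1r, B2m, Adora3 (with Tmigd3), P3h2 (with AU015336), Klk8 (with 2310002F09Rik), Irf8 (with Gm20388), P2ry12 and P2ry13 (both within Med12l) and Gpr34 (with Cask). P3h2, Mymk and Spint1 were also at 0 in all 3 IRF8KO libraries, whereas Klk8 and Pdcd1 had means of 8.44 ± 10.7 CPM and 6.51 ± 11.3 CPM there.

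The promoters of genes that fell include some with letters of the IRF elements named above. RefSeq promoter windows (GRCm38.p6, 250 bases before to 50 after a start) were searched on both strands for GAAA-NN-GAAA, the response element core, and GGAA-NN-GAAA, the composite element, where NN is any 2 bases. The 2 motifs differ in their second letter, so that no match counts for both. The 250 bases before the start are shown for genes described here that hold a match. Capitals mark the response element core, or its reverse complement where it lies on the other strand. Slamf8 lies at chr1:172590569-172590818 on the minus strand, Aif1, which encodes the macrophage protein IBA1, at chr17:35176053-35176302 on the minus strand, and Ctss, the cathepsin S gene, at chr3:95526536-95526785 on the plus strand.
Slamf8: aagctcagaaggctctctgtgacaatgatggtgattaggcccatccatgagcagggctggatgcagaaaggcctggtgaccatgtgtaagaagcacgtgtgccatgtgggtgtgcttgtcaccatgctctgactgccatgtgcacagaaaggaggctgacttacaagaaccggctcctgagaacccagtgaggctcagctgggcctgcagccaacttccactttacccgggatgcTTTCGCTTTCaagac
Aif1: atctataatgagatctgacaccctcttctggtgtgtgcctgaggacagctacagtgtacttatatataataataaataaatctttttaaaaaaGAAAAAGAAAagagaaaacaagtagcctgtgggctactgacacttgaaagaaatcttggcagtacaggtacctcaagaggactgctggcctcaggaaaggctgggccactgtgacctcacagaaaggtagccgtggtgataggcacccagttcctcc
Ctss: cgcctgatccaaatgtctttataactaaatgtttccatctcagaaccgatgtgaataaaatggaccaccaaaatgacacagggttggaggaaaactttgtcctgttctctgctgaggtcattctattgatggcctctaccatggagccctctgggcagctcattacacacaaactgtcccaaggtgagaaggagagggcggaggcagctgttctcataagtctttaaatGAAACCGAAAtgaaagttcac

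B2m, the light chain of MHC class I, lies at chr2:122147437-122147686 on the plus strand. Pdcd1 lies at chr1:94052554-94052803 on the minus strand, and its capitals mark the composite element on the opposite strand. Cybb, the catalytic subunit of the phagocyte NADPH oxidase, rose and is shown for contrast, with 3 matches, at chrX:9469325-9469574 on the minus strand.
B2m: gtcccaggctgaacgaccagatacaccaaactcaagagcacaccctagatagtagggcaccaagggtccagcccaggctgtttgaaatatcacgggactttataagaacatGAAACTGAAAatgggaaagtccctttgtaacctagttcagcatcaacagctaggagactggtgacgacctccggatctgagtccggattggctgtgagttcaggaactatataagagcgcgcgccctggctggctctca
Pdcd1: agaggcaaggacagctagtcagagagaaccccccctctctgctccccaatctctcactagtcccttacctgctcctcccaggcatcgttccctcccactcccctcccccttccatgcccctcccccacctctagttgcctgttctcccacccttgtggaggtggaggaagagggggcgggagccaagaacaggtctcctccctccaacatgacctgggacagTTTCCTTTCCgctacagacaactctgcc
Cybb: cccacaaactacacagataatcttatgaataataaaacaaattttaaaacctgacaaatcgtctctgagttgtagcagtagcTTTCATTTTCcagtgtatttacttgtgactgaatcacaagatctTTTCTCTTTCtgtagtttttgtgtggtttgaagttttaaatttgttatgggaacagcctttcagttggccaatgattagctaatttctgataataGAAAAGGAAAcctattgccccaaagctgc

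These matches were not limited to genes that fell. The response element core was found in 3.44% of all 32851 promoter windows, 3.66% of the windows of genes that fell (792 of 1038 genes had a window), 2.94% for genes that rose (722 of 902) and 2.88% for genes of the same set that were not called (5898 of 7336). For the 112 genes at 0 in every 5xFAD/IRF8KO library, of which 78 had a window, the share was 6 of 89 windows, or 6.74%. The composite element was in 2.72% of all windows, 2.18% of the windows of genes that fell, 3.04% of those of genes that rose and 2.39% of those of genes that were not called. For the 112 genes at 0 it was in 4 of 89 windows, or 4.49%. Each share counts windows, of which a gene can have several, and a match describes letters only.

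Homeostatic microglial genes fell as a group. Of 32 genes on a list of homeostatic markers, 30 were lower and none higher, and the median log2 fold change was -3.31. The 2 that were not called were Tgfbr1 (log2 fold change -0.35, adjusted p = 0.374) and Nav3 (-1.20, adjusted p = 0.206). The list's share of all gene counts was 15.7, 16.8 and 17.2% in 5xFAD and 1.54, 1.51 and 1.82% in 5xFAD/IRF8KO. The groups did not overlap, and an exact two-sided permutation test gave p = 0.1, the smallest that 3 against 3 libraries allow.

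P2ry12, the ADP receptor that steers microglial processes, had 8599, 10033 and 10013 CPM in 5xFAD and 477, 323 and 496 CPM in 5xFAD/IRF8KO (log2 fold change -4.47, SE 0.37, adjusted p = 6.67e-06). Tmem119, a membrane protein used to tell microglia from other macrophages, had 5520.1, 6609.6 and 4226 CPM in 5xFAD and 674, 659 and 592 CPM in 5xFAD/IRF8KO (log2 fold change -3.09, SE 0.38, adjusted p = 0.000104). Cst3, the cathepsin inhibitor cystatin C, had 69186, 83299 and 87273 CPM in 5xFAD and 5061, 4576 and 6221 CPM in 5xFAD/IRF8KO (log2 fold change -3.92, SE 0.31, adjusted p = 5.09e-06). For all 3 genes the lowest 5xFAD library was several times the highest 5xFAD/IRF8KO library.

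Cx3cr1, the receptor of the neuronal chemokine fractalkine, fell less, from 4402, 2373 and 2376 to 611, 614 and 1107 CPM (log2 fold change -1.97, SE 0.41, adjusted p = 0.00402). Csf1r, the receptor on which microglial survival depends, went from 8658, 6332 and 5788 to 1808, 2645 and 1464 CPM (log2 fold change -1.81, SE 0.38, adjusted p = 0.00454). The libraries of the groups did not overlap for either gene, and both transcripts remained present in every 5xFAD/IRF8KO library.

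Siglech (log2 fold change -3.73, SE 0.30, adjusted p = 6.1e-06), Gpr34 (log2 fold change -3.69, SE 0.45, adjusted p = 9.54e-05), Selplg (log2 fold change -3.66, SE 0.45, adjusted p = 0.000112) and P2ry13 (log2 fold change -3.96, SE 0.39, adjusted p = 2.34e-05) fell by like amounts. Slc2a5, the fructose transporter, had 1156, 530.0 and 576 CPM in 5xFAD and 20.7, 22.3 and 0 CPM in 5xFAD/IRF8KO (log2 fold change -5.71, SE 1.50, adjusted p = 0.0141), with replicate 3 at 0. Aif1, which is not on the list, had 829, 967 and 973 CPM in 5xFAD and 21.4, 21.6 and 19.9 CPM in 5xFAD/IRF8KO (log2 fold change -5.46, SE 0.25, adjusted p = 5.02e-07), and its 3 knockout libraries lay within a narrow range.

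Transcription factors of microglia changed unevenly. Of 30 on the list, 11 were lower, 3 higher and 16 not called, with a median of -0.78. Besides Irf8, Batf3 and Sall1, the falls included Maf (log2 fold change -2.62, adjusted p = 0.0119), Cebpa (-2.53, adjusted p = 0.01), Irf5 (-3.03, adjusted p = 0.00176), Lyl1 (-3.74, adjusted p = 0.0061), Smad7 (-3.36, adjusted p = 0.0294), Etv5 (-1.42, adjusted p = 0.0238) and Klf4, which was at 0 in all 3 5xFAD/IRF8KO libraries (at least 29.2-fold lower, adjusted p = 0.00508). Irf5, another interferon regulatory factor gene, had 579, 564 and 419 CPM in 5xFAD and 105, 42.5 and 44.4 CPM in 5xFAD/IRF8KO.

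The rises were Bhlhe40, Stat3 and Nr4a1. Bhlhe40, a helix-loop-helix repressor, had 1.91, 2.26 and 2.59 CPM in 5xFAD and 20.6, 24.8 and 118 CPM in 5xFAD/IRF8KO (log2 fold change 4.61, SE 0.78, adjusted p = 0.00108), and Stat3 (log2 fold change 1.30, SE 0.38, adjusted p = 0.0247) and Nr4a1 (log2 fold change 3.05, SE 0.97, adjusted p = 0.0347) rose too. Spi1, which encodes PU.1, the DNA-binding partner of IRF8, had 442, 429.6 and 379 CPM in 5xFAD and 383, 474 and 257 CPM in 5xFAD/IRF8KO, and its groups overlapped (log2 fold change -0.17, adjusted p = 0.718). The antioxidant factor gene Nfe2l2 was not called either (-0.23, adjusted p = 0.501).

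Disease-associated genes were called in both directions, with rises near their share among all tested genes. On a list of 35 tested genes 13 were lower, 6 higher and 16 not called, with a median of -0.41, beside 9.72% lower and 18% higher of all tested genes. The list's share of gene counts overlapped between the groups, with 5.67, 6.45 and 7.66% in 5xFAD and 5.33, 4.82 and 6.32% in 5xFAD/IRF8KO (exact two-sided permutation p = 0.2). Apoe, with means of 6330 CPM in 5xFAD and 39086 CPM in 5xFAD/IRF8KO, made up most of the list's counts in 5xFAD/IRF8KO. The overlap therefore does not show that the rest of the list kept its share, which was not computed. The receptor complex that carries microglia into this state fell. Trem2 had 2586, 2432 and 3171 CPM in 5xFAD and 292, 345 and 686 CPM in 5xFAD/IRF8KO (log2 fold change -2.63, SE 0.41, adjusted p = 0.000578), and its signalling adaptor Tyrobp had 4564, 7108 and 7249 CPM in 5xFAD and 2246, 2437 and 1825 CPM in 5xFAD/IRF8KO (log2 fold change -1.54, SE 0.30, adjusted p = 0.00277).

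Cst7, cystatin F, had 247, 568 and 865 CPM in 5xFAD and 228, 183 and 142 CPM in 5xFAD/IRF8KO (log2 fold change -1.60, SE 0.38, adjusted p = 0.00888), with the lowest 5xFAD library close to the highest 5xFAD/IRF8KO library. Ccl3 (log2 fold change -4.13, SE 0.67, adjusted p = 0.000816) and Ccl4 (log2 fold change -6.10, SE 1.23, adjusted p = 0.00335), chemokines of activated microglia, fell further. Cathepsin and phagosome genes of the list fell with them, among them Ctsz (log2 fold change -3.23), Cd68 (-3.15), Ctsl (-2.51), Ctsd (-2.08) and Ctsb (-2.03).

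Apoe, the main lipid carrier of the brain, rose instead. It had 4527, 5289.7 and 9173 CPM in 5xFAD and 36991, 32503 and 47765 CPM in 5xFAD/IRF8KO (log2 fold change 2.63, SE 0.34, adjusted p = 0.000162), and the 3 knockout libraries lay far above the 3 5xFAD libraries. Lgals3, galectin 3, had 9.92, 9.23 and 21.7 CPM in 5xFAD and 732, 1047 and 406 CPM in 5xFAD/IRF8KO (log2 fold change 5.79, SE 0.58, adjusted p = 2.34e-05), and Lilrb4a, an inhibitory receptor, 6.74, 2.83 and 5.18 CPM in 5xFAD and 277, 328 and 97.4 CPM in 5xFAD/IRF8KO (log2 fold change 5.56, SE 0.64, adjusted p = 6.48e-05). Clec7a, the beta-glucan receptor, had 115, 113 and 295 CPM in 5xFAD and 326, 392 and 317 CPM in 5xFAD/IRF8KO (log2 fold change 0.99, SE 0.34, adjusted p = 0.0474), and this call was lost in most of the alternative fits. Astrocytes, border macrophages and neutrophils also express some of these genes, and markers of those cells rose in the same libraries, as given below. Their part in the rises was not tested.

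Other genes of the state were not called. Lpl had 37.1, 18.3 and 56.9 CPM in 5xFAD and 39.3, 7.14 and 22.2 CPM in 5xFAD/IRF8KO (adjusted p = 0.462). Axl had 97.1, 57.5 and 123 CPM in 5xFAD and 0, 13.7 and 0 CPM in 5xFAD/IRF8KO, with reads in 1 knockout library only (adjusted p = 0.0722). It was called lower in 3 alternative fits: without the filter (adjusted p = 0.000177), with DESeq2 and without 5xFAD/IRF8KO replicate 2, the library with its reads. Csf1 (log2 fold change 0.54, adjusted p = 0.542), Fth1 (0.40, adjusted p = 0.18) and Gpnmb (3.07, adjusted p = 0.267) did not pass the threshold.

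**Figure D3:**
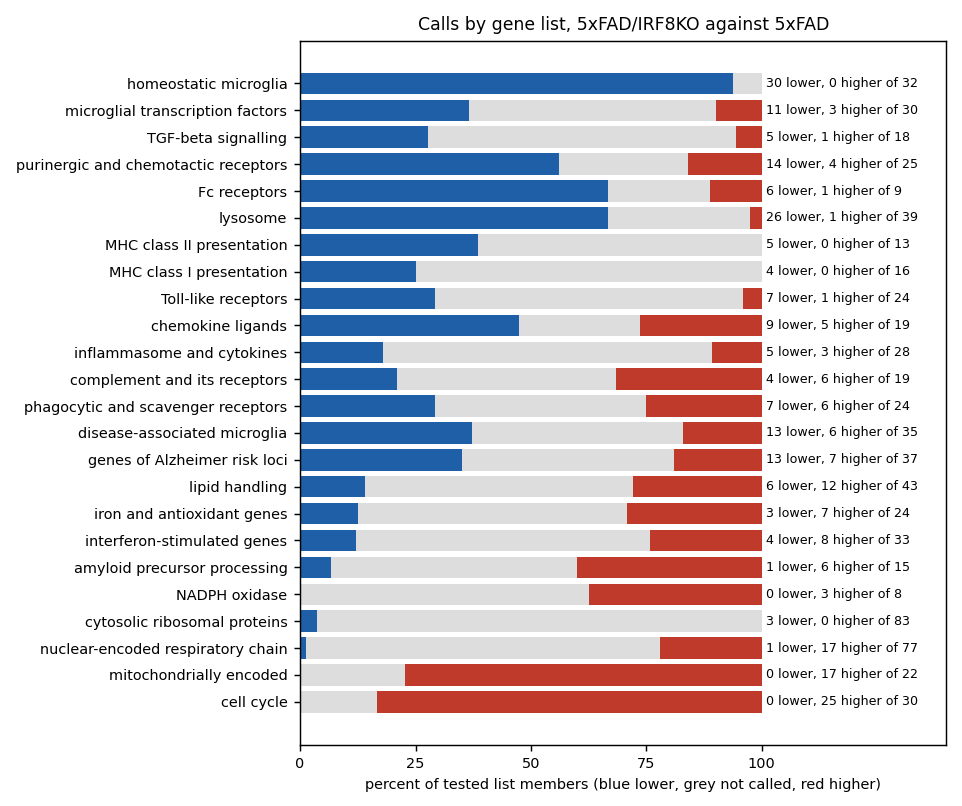
Percent of the tested genes of each list that were called lower (blue), not called (grey) or called higher (red) in 5xFAD/IRF8KO against 5xFAD at an adjusted p under 0.05, with the counts beside each bar. Homeostatic and lysosomal genes fell, with 30 of 32 and 26 of 39 lower. Of 30 cell cycle genes 25 rose, though only 11 were at 5 CPM or more in 5xFAD, of which 6 rose.

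Lysosomal genes fell broadly. Of 39 tested, 26 were lower and 1, the proton pump subunit gene Atp6v1a (log2 fold change 2.21, SE 0.28, adjusted p = 0.000141), was higher, with a median of -1.51. The list took 9.97, 9 and 9.8% of gene counts in 5xFAD and 1.95, 1.99 and 2.08% in 5xFAD/IRF8KO (exact two-sided permutation p = 0.1). Ctss, which trims the invariant chain of MHC class II, had 13165, 12272 and 14503 CPM in 5xFAD and 1537, 1622 and 1869 CPM in 5xFAD/IRF8KO (log2 fold change -2.99, SE 0.23, adjusted p = 4.73e-06). Ctsd, the main aspartyl protease, had 17482, 17467 and 16048 CPM in 5xFAD and 3916, 3829 and 4316 CPM in 5xFAD/IRF8KO (log2 fold change -2.08, SE 0.31, adjusted p = 0.000451). Ctsh (log2 fold change -3.89, SE 0.42, adjusted p = 3.61e-05) and Npc2 (log2 fold change -2.17, SE 0.24, adjusted p = 5.26e-05), a cholesterol carrier, fell as well. No library of one group overlapped with the other for Ctss or Ctsd.

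Antigen presentation genes fell in part, beside 9.72% lower and 18% higher of all tested genes. Of 13 tested class II genes 5 were lower and none higher (median -2.60): the peptide loading genes H2-DMa, with 628, 488 and 703 CPM in 5xFAD and 18.4, 12 and 14.6 CPM in 5xFAD/IRF8KO (log2 fold change -5.33, SE 0.48, adjusted p = 1.09e-05), and H2-DMb1 (log2 fold change -3.45, SE 0.61, adjusted p = 0.00145), the thiol reductase Ifi30 (log2 fold change -2.60, SE 0.49, adjusted p = 0.00219), Ctss, and the costimulator Cd86 (log2 fold change -3.45, SE 0.56, adjusted p = 0.000795). The invariant chain gene Cd74 had 221, 165 and 199.8 CPM in 5xFAD and 123, 110.3 and 0 CPM in 5xFAD/IRF8KO, with replicate 3 at 0, and was not called (adjusted p = 0.459). Of 16 class I genes 4 were lower and none higher (median -0.60): H2-Q4, with 1 count in 5xFAD/IRF8KO (a 83.9-fold ratio of summed counts, exact 95% counting interval 14.3 to 3386 in the direction of a fall, adjusted p = 0.0357), B2m, Psmb8 (log2 fold change -1.33, SE 0.28, adjusted p = 0.00408) and Psmb10 (log2 fold change -1.54, SE 0.40, adjusted p = 0.0126). B2m had 4254, 5389 and 5691 CPM in 5xFAD and 1855, 1977 and 2069.7 CPM in 5xFAD/IRF8KO (log2 fold change -1.38, SE 0.21, adjusted p = 0.000448), and H2-D1 (0.92, adjusted p = 0.0973) and H2-K1 (-0.38, adjusted p = 0.341) were not called.

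Of 33 tested interferon-stimulated genes 4 were lower and 8 higher, with a median of 0.43. Of all tested genes 9.72% were lower and 18% higher, so these counts lie near the background. The falls were Phf11d, Mx1, with 7.1, 4.52 and 6.73 CPM in 5xFAD and 0 CPM in all 3 5xFAD/IRF8KO libraries (at least 69.9-fold lower, adjusted p = 0.00336), Ifit2 (log2 fold change -6.68, SE 1.90, adjusted p = 0.021) and Bst2 (log2 fold change -1.54, SE 0.33, adjusted p = 0.00483). The antiviral gene Rsad2 rose from 2.91, 1.13 and 3.62 to 221, 101 and 193 CPM (log2 fold change 6.12, SE 1.05, adjusted p = 0.00119), Ifitm3 from 53.3, 52.2 and 63.1 to 372, 476 and 383 CPM (log2 fold change 2.87, SE 0.36, adjusted p = 0.000117) and Slfn2 from 79.5, 75.7 and 69.9 to 603, 1057 and 358 CPM (log2 fold change 3.16, SE 0.40, adjusted p = 0.000138). Ifit3 was lower in every knockout library, with 31.2, 23.9 and 26.4 CPM in 5xFAD and 9.16, 9.17 and 10.2 CPM in 5xFAD/IRF8KO, without passing the threshold (adjusted p = 0.131).

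Complement genes were called in both directions, beside 9.72% lower and 18% higher of all tested genes. The 3 chains of C1q, the recognition protein that microglia supply to the brain, fell together: C1qa had 5663, 6638 and 6758 CPM in 5xFAD and 602, 509.5 and 731 CPM in 5xFAD/IRF8KO (log2 fold change -3.37, SE 0.28, adjusted p = 6.38e-06), C1qb went from 12217 ± 875 CPM to 530.1 ± 136 CPM (SD, n = 3, log2 fold change -4.53, SE 0.40, adjusted p = 1.01e-05) and C1qc from 11426 ± 1017 CPM to 968 ± 132 CPM (log2 fold change -3.56, SE 0.30, adjusted p = 7.05e-06). The receptor gene C3ar1 fell as well (log2 fold change -1.78, SE 0.43, adjusted p = 0.00937), which makes 4 lower of 19 tested. C3, the central component, had 0.455, 0 and 1.04 CPM in 5xFAD and 614, 412 and 88.1 CPM in 5xFAD/IRF8KO (log2 fold change 9.83, SE 1.08, adjusted p = 4.25e-05), and properdin, Cfp, had 4.55, 3.39 and 1.04 CPM in 5xFAD and 416, 369 and 173 CPM in 5xFAD/IRF8KO (log2 fold change 6.60, SE 0.64, adjusted p = 1.92e-05). The other 4 of the 6 rises were C5ar1 (log2 fold change 1.29), Itgb2 (1.59), Cd55 (6.17) and Cd93, which had 3 counts in 5xFAD (a 119.7-fold ratio of summed counts, exact 95% counting interval 40.8 to 582). Neutrophils also express C5ar1, Cfp and Itgb2, and neutrophil marker genes rose in the same libraries, as given below. Their part in these rises was not tested. C3 had 7 summed counts in 5xFAD, and which cells its reads in 5xFAD/IRF8KO came from was not tested either.

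Most receptor genes for antibodies fell, as did a part of those for microbial ligands. Of 9 Fc receptor genes 6 were lower and 1 higher: the high-affinity receptor Fcgr1 had 565, 606 and 612 CPM in 5xFAD and 9.08, 31.9 and 10.8 CPM in 5xFAD/IRF8KO (log2 fold change -5.10, SE 0.58, adjusted p = 5.46e-05), Fcgr3 4157, 5397 and 4488 CPM in 5xFAD and 1236, 1463 and 687 CPM in 5xFAD/IRF8KO (log2 fold change -2.05, SE 0.38, adjusted p = 0.00212), and Fcgr2b, Fcrls, Fcgrt and the common chain Fcer1g had log2 fold changes of -2.32, -1.51, -1.41 and -0.91. The B-cell gene Fcrla rose from 3 counts in 5xFAD (a 162-fold ratio of summed counts, exact 95% counting interval 55.4 to 789). Of 24 Toll-like receptor genes 7 were lower and 1, the inhibitor Irak3 (log2 fold change 3.43, SE 0.54, adjusted p = 0.00065), higher. Ly86, the partner of the receptor CD180, had 2301, 1979 and 2948 CPM in 5xFAD and 4.8, 2.04 and 4.73 CPM in 5xFAD/IRF8KO (log2 fold change -9.28, SE 0.88, adjusted p = 1.79e-05). Tlr12 (at least 466-fold lower, adjusted p = 6.84e-05) and the adaptor Ticam1 (at least 372-fold lower, adjusted p = 0.013) were at 0 in all 3 knockout libraries, and Tlr7 (log2 fold change -1.46), Unc93b1 (-2.35) and Cd14 (-2.05) fell too. Tlr9, the receptor for unmethylated DNA, fell to 1 count (a 56.6-fold ratio of summed counts, exact 95% counting interval 9.43 to 2305, adjusted p = 0.0169).

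Of 25 purinergic and chemotactic receptor genes 14 were lower and 4 higher, with a median of -1.97. Beside P2ry12, P2ry13, Gpr34, Cx3cr1 and Adora3, the chemerin receptor Cmklr1 had 15.3, 15.8 and 15 CPM in 5xFAD and 0.343, 0 and 0 CPM in 5xFAD/IRF8KO (log2 fold change -6.84, SE 1.89, adjusted p = 0.0179). The rises included the formyl peptide receptors of phagocytes, with Fpr1 at 0, 1.32 and 0 CPM in 5xFAD and 546, 955 and 289 CPM in 5xFAD/IRF8KO (log2 fold change 10.38, SE 1.10, adjusted p = 9.01e-05) and Fpr2 at 0 CPM in all 3 5xFAD libraries and 84.8, 153 and 61 CPM in 5xFAD/IRF8KO (at least 603-fold higher).

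Chemokine ligands fell in 9 and rose in 5 of 19 tested genes, with a median of -1.69. The monocyte attractant Ccl2 had 7.19, 44.1 and 35.7 CPM in 5xFAD and 0 CPM in all 3 5xFAD/IRF8KO libraries (at least 232-fold lower, adjusted p = 0.00299), and Ccl12 had 177, 508 and 359.7 CPM in 5xFAD and 25.3, 2.41 and 27.6 CPM in 5xFAD/IRF8KO (log2 fold change -4.23, SE 0.73, adjusted p = 0.00118). The rises were Cxcl1, with 0, 0.188 and 0 CPM in 5xFAD and 23.3, 9.27 and 23.7 CPM in 5xFAD/IRF8KO (a 344-fold ratio of summed counts, exact 95% counting interval 61.6 to 13617), Cxcl2 (log2 fold change 4.33), Cxcl14 (4.76), Cx3cl1 (5.20) and Pf4 (6.34). Cx3cl1 is made chiefly by neurons and Pf4 by platelets and some macrophages.

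Among cytokine and inflammasome genes 5 of 28 were lower and 3 higher (median -0.67), beside 9.72% lower and 18% higher of all tested genes. Il6 had 15.3, 16.8 and 23.8 CPM in 5xFAD and 0 CPM in all 3 5xFAD/IRF8KO libraries (at least 184-fold lower, adjusted p = 0.00788), and Tgfb1, the cytokine that keeps microglia in their resting identity, 146, 109 and 80.7 CPM in 5xFAD and 14.5, 20.7 and 4.82 CPM in 5xFAD/IRF8KO (log2 fold change -3.07, SE 0.48, adjusted p = 0.000621). The falls of Naip6 (at least 130.1-fold lower, adjusted p = 0.00124), Pycard (log2 fold change -2.32, SE 0.42, adjusted p = 0.00173) and Casp8 (log2 fold change -1.45, SE 0.36, adjusted p = 0.011) touch inflammasome genes. The interleukin 1 antagonist Il1rn had 5.19, 1.51 and 3.11 CPM in 5xFAD and 155, 399 and 177 CPM in 5xFAD/IRF8KO (log2 fold change 6.16, SE 0.80, adjusted p = 0.00016), and Il18bp (log2 fold change 3.87, SE 0.79, adjusted p = 0.00377) and Il1b (log2 fold change 3.34, SE 0.59, adjusted p = 0.00145) rose as well. Il1a had 210.3, 217 and 201 CPM in 5xFAD and 58.3, 20 and 0 CPM in 5xFAD/IRF8KO and was not called (adjusted p = 0.0706).

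Genes of transforming growth factor beta signalling followed Tgfb1 in part, with 5 of 18 lower and 1 higher (median -0.32). Of all tested genes 9.72% were lower and 18% higher. The falls were Tgfb1, Nrros (log2 fold change -1.48, SE 0.40, adjusted p = 0.0158), which presents the latent cytokine on microglia, Smad7, Tgif1 (log2 fold change -1.39, SE 0.43, adjusted p = 0.0312) and Eng (log2 fold change -4.99, SE 1.22, adjusted p = 0.0128). Itgb8, a subunit of an integrin that activates the cytokine, rose from 1 count in 5xFAD to 18.2, 2.5 and 23.4 CPM (a 269-fold ratio of summed counts, exact 95% counting interval 48.1 to 10651), and the receptor Tgfbr2 was not called (adjusted p = 0.0932).

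Of 16 genes of myeloid growth factor signalling, Csf1r, Tyrobp, Csf2rb2 (log2 fold change -4.70, SE 1.37, adjusted p = 0.0236) and Il3ra (at least 21.9-fold lower, adjusted p = 0.0232) were lower and 3 higher. The rises were Cbl (log2 fold change 1.70, SE 0.52, adjusted p = 0.0296), whose libraries overlapped, Il34 (at least 6.21-fold higher), the second ligand of CSF1R, which neurons make, and Kit, the stem cell factor receptor, with 0 CPM in all 3 5xFAD libraries and 117, 101 and 30 CPM in 5xFAD/IRF8KO (at least 508-fold higher). Ptprc, the pan-leukocyte gene CD45, had 169, 162 and 150.1 CPM in 5xFAD and 792, 891 and 593 CPM in 5xFAD/IRF8KO (log2 fold change 2.24, SE 0.41, adjusted p = 0.00186). Itgam, which encodes CD11b, had 176, 163 and 139 CPM in 5xFAD and 292, 401 and 164 CPM in 5xFAD/IRF8KO and was not called (adjusted p = 0.112).

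Of 43 tested genes of lipid handling 12 were higher and 6 lower, with a median of 1.24, beside 18% higher and 9.72% lower of all tested genes. Among the 30 at 5 CPM or more in 5xFAD, 8 were higher and 6 lower, with a median of 0.058. Apoc1 (chr7:19689481-19692660), a neighbour of Apoe, had 0.728, 1.51 and 2.07 CPM in 5xFAD and 288, 182 and 379 CPM in 5xFAD/IRF8KO (log2 fold change 7.80, SE 0.60, adjusted p = 4.6e-06), and Apoc4 had 1.27, 3.2 and 8.8 CPM in 5xFAD and 72.1, 47.1 and 108 CPM in 5xFAD/IRF8KO (log2 fold change 4.19, SE 0.79, adjusted p = 0.00346). Scd1, a fatty acid desaturase, had 0, 0.188 and 0.518 CPM in 5xFAD and 38.5, 75.1 and 79.2 CPM in 5xFAD/IRF8KO (a 579-fold ratio of summed counts, exact 95% counting interval 160.2 to 4787). The falls included the prostaglandin enzymes Ptgs1 and Hpgds. Ptgs1 had 1009, 706 and 714 CPM in 5xFAD and 435, 397 and 358 CPM in 5xFAD/IRF8KO (log2 fold change -1.03, SE 0.22, adjusted p = 0.00446) and Hpgds 418, 428 and 449.8 CPM in 5xFAD and 106, 139 and 170.1 CPM in 5xFAD/IRF8KO (log2 fold change -1.64, SE 0.25, adjusted p = 0.000443). The list's share of gene counts was 0.782, 0.868 and 1.3% in 5xFAD and 3.62, 3.05 and 4.72% in 5xFAD/IRF8KO. Apoe, a member of this list too, had most of these counts in both groups, so the share follows Apoe.

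Iron and antioxidant genes had 7 higher and 3 lower of 24 (median 0.64), and NADPH oxidase genes 3 higher of 8 and none lower. Of all tested genes 18% were higher and 9.72% lower. The iron carriers Slc11a1 (log2 fold change -1.39, SE 0.24, adjusted p = 0.0013) and Slc11a2 (log2 fold change -1.26, SE 0.44, adjusted p = 0.049) and the haem oxygenase Hmox2 (log2 fold change -1.57, SE 0.34, adjusted p = 0.00516) fell. Ceruloplasmin, Cp, had 4.28, 6.41 and 2.59 CPM in 5xFAD and 384, 227 and 243 CPM in 5xFAD/IRF8KO (log2 fold change 5.95, SE 0.48, adjusted p = 5.96e-06), Prdx5 170.0, 189 and 210.2 CPM in 5xFAD and 894, 1056 and 802 CPM in 5xFAD/IRF8KO (log2 fold change 2.27, SE 0.24, adjusted p = 3.27e-05) and Tfrc, the transferrin receptor, 9.37, 2.64 and 2.59 CPM in 5xFAD and 122, 157 and 58 CPM in 5xFAD/IRF8KO (log2 fold change 4.47, SE 1.01, adjusted p = 0.0064). Cybb had 8.46, 2.64 and 3.62 CPM in 5xFAD and 2179.6, 2435 and 1516 CPM in 5xFAD/IRF8KO (log2 fold change 8.61, SE 0.64, adjusted p = 3.85e-06), and its partners Rac2 (log2 fold change 2.15, SE 0.30, adjusted p = 0.000254) and Ncf4 (log2 fold change 1.36, SE 0.27, adjusted p = 0.00288) rose, while Cyba (log2 fold change -0.50, adjusted p = 0.129) and Ncf1 (0.76, adjusted p = 0.0818) were not called.

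Amyloid precursor genes rose. App had 79.5, 53.9 and 53.8 CPM in 5xFAD and 239, 294 and 297 CPM in 5xFAD/IRF8KO (log2 fold change 2.14, SE 0.27, adjusted p = 0.000134), Aplp1 2.73, 3.2 and 2.59 CPM in 5xFAD and 159.7, 135 and 150.1 CPM in 5xFAD/IRF8KO (log2 fold change 5.68, SE 0.54, adjusted p = 1.79e-05) and Aplp2 162, 67.6 and 141 CPM in 5xFAD and 369.7, 224 and 254 CPM in 5xFAD/IRF8KO (log2 fold change 1.20, SE 0.32, adjusted p = 0.0162), and of 15 tested genes of this list 6 were higher (with Aph1b, Adam10 and Apbb1) and 1, the secretase subunit gene Psenen (log2 fold change -1.03, SE 0.30, adjusted p = 0.0242), lower (median 1.20). Both groups carry the human transgene, whose reads were not separated from those of mouse App. Neurons express all 3 precursors and their markers rose in the same libraries, and the part of neuronal RNA was not tested.

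Of 37 tested genes near loci of Alzheimer's disease risk, 13 were lower and 7 higher (median -0.17). Of all tested genes 9.72% were lower and 18% higher, so the count of rises lies near the background. Sorl1, a sorting receptor for the amyloid precursor, had 9.47, 8.29 and 14.5 CPM in 5xFAD and 395, 336 and 131 CPM in 5xFAD/IRF8KO (log2 fold change 4.77, SE 0.66, adjusted p = 0.000243), and Clu, clusterin, 1.09, 2.45 and 5.69 CPM in 5xFAD and 477, 440.5 and 469 CPM in 5xFAD/IRF8KO (log2 fold change 7.47, SE 0.66, adjusted p = 1.01e-05). Cd33 (log2 fold change -0.32, adjusted p = 0.44) and Inpp5d (-1.72, adjusted p = 0.217) were not called.

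Genes of C-type lectins and Siglecs, sialic acid receptors, rose in 8 and fell in 4 of 21 cases. Of all tested genes 18% rose and 9.72% fell. The falls were Siglech, Cd209f, Clec1a and Clec2d. Clec12a had 0.728, 2.64 and 1.04 CPM in 5xFAD and 652, 645 and 696 CPM in 5xFAD/IRF8KO (log2 fold change 8.82, SE 0.67, adjusted p = 3.92e-06) and Clec4e, a receptor of neutrophils and macrophages, 0, 0 and 0.518 CPM in 5xFAD and 140.3, 253 and 119.8 CPM in 5xFAD/IRF8KO (a 3104-fold ratio of summed counts, exact 95% counting interval 557 to 1.23e+05). Phagocytic receptor genes were split, with 7 lower, such as Itgb5 (log2 fold change -1.95, SE 0.38, adjusted p = 0.00277) and the signal regulatory protein Sirpa (log2 fold change -1.35, SE 0.30, adjusted p = 0.00623), and 6 higher of 24. Mrc1, the mannose receptor of border macrophages, had 1.55, 2.45 and 1.55 CPM in 5xFAD and 173, 149 and 145 CPM in 5xFAD/IRF8KO (log2 fold change 6.37, SE 0.62, adjusted p = 1.96e-05).

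Genes of cell stress rose in part, beside 18% higher and 9.72% lower of all tested genes. Of 22 immediate early genes 8 were higher and 3, Ier5, Klf4 and Rhob, lower. Of 13 heat shock genes Hsp90aa1, Hsp90ab1, Hspa1a, Hspa1b and Dnaja1 were higher and none lower. Fos had 2.18, 0.942 and 1.55 CPM in 5xFAD and 239.7, 249 and 102 CPM in 5xFAD/IRF8KO (log2 fold change 6.92, SE 0.69, adjusted p = 2.34e-05) and Dusp1 12.5, 11.9 and 21.2 CPM in 5xFAD and 317, 507 and 161 CPM in 5xFAD/IRF8KO (log2 fold change 4.46, SE 0.61, adjusted p = 0.00022), with no overlap of the groups for either. Hsp90aa1 had 42, 29 and 37.3 CPM in 5xFAD and 207, 163 and 338 CPM in 5xFAD/IRF8KO (log2 fold change 2.71, SE 0.43, adjusted p = 0.000656). Hspa8 (adjusted p = 0.144) and Btg2 (adjusted p = 0.146) were not called.

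Cell cycle genes rose: 25 of 30 were higher, none was lower and the median was 5.28, beside 18% higher of all tested genes. Only 11 of the 30 were at 5 CPM or more in 5xFAD, and of these 6 were higher with a median of 2.43. The other members were scarce in 5xFAD and had little room to fall, so their part of the count is a description. Their share of gene counts was 0.0399, 0.038 and 0.0417% in 5xFAD and 0.351, 0.414 and 0.214% in 5xFAD/IRF8KO. Top2a, the topoisomerase of dividing cells, had 1.09, 0.565 and 0 CPM in 5xFAD and 139, 356 and 147 CPM in 5xFAD/IRF8KO (log2 fold change 8.17, SE 1.10, adjusted p = 0.000202), Ube2c 1.27, 0.188 and 3.11 CPM in 5xFAD and 244, 175 and 169 CPM in 5xFAD/IRF8KO (log2 fold change 7.28, SE 0.73, adjusted p = 2.34e-05) and Tpx2 0.91, 0.377 and 1.04 CPM in 5xFAD and 144, 187 and 146 CPM in 5xFAD/IRF8KO (log2 fold change 7.70, SE 0.73, adjusted p = 1.79e-05). Mki67 had 0.546, 0 and 0 CPM in 5xFAD and 85.9, 65.9 and 1.67 CPM in 5xFAD/IRF8KO (log2 fold change 7.53, SE 1.89, adjusted p = 0.0111) and Rrm2 2.46, 1.32 and 3.62 CPM in 5xFAD and 433, 631 and 0 CPM in 5xFAD/IRF8KO (log2 fold change 7.24, SE 1.87, adjusted p = 0.0131), with replicate 3 of 5xFAD/IRF8KO near or at 0 for both. Primary granule genes of immature neutrophils were also lowest in replicate 3. Which cells were in cycle was not tested.

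Few ribosomal protein genes were called within 5xFAD. Of 83 tested, 3 were lower and none higher, with a median of -0.14. Rpl10a was among the falls (log2 fold change -1.40, SE 0.36, adjusted p = 0.0125), as was Rps19bp1 (log2 fold change -1.67, SE 0.57, adjusted p = 0.0449), which encodes a ribosome-associated regulator and was taken up by its name. Genes of the mitochondrial genome rose in 17 of 22 cases with none lower (median 3.81). Their share of gene counts was 0.283, 0.413 and 0.595% in 5xFAD and 2.92, 2.62 and 4.75% in 5xFAD/IRF8KO. mt-Co1 had 669, 424 and 694 CPM in 5xFAD and 6206, 6739.5 and 10360.0 CPM in 5xFAD/IRF8KO (log2 fold change 3.71, SE 0.33, adjusted p = 1.18e-05) and mt-Nd1 772, 1286 and 1812 CPM in 5xFAD and 6601, 5678 and 9988 CPM in 5xFAD/IRF8KO (log2 fold change 2.52, SE 0.37, adjusted p = 0.000373). Nuclear genes of the respiratory chain had 17 of 77 higher and 1 lower, with a median of 0.50. Of all tested genes 18% were higher and 9.72% lower, so the count of rises lies near the background. Without the transgenes, 65 of the 77 were higher in IRF8KO against WT and none lower, beside 19.6% higher of all tested genes.

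The 12 largest rises among genes at 5 CPM or more in 5xFAD were in genes of low level there. Anxa2, a membrane-binding annexin, had 3.55, 7.16 and 13.5 CPM in 5xFAD and 1119.8, 1256 and 699 CPM in 5xFAD/IRF8KO (log2 fold change 7.09, SE 0.60, adjusted p = 7.05e-06). Pygl, a glycogen phosphorylase, had 8.19, 6.59 and 6.73 CPM in 5xFAD and 1098, 984 and 525 CPM in 5xFAD/IRF8KO (log2 fold change 6.90, SE 0.57, adjusted p = 6.43e-06), and Slc2a3, the glucose transporter of neurons and leukocytes, 7.01, 7.54 and 2.59 CPM in 5xFAD and 691, 882 and 264 CPM in 5xFAD/IRF8KO (log2 fold change 6.66, SE 0.67, adjusted p = 2.48e-05). All 3 genes lay higher in every knockout library, and all 3 were lowest in replicate 3 of 5xFAD/IRF8KO.

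Other members of these 12 are textbook genes of other cells. Mbp, myelin basic protein, had 36.5, 29.8 and 89 CPM in 5xFAD and 4127, 4206 and 4130.1 CPM in 5xFAD/IRF8KO (log2 fold change 6.35, SE 0.48, adjusted p = 3.94e-06), Aldoc, the aldolase of astrocytes and neurons, 5.83, 6.78 and 16.6 CPM in 5xFAD and 856, 888 and 1068 CPM in 5xFAD/IRF8KO (log2 fold change 6.68, SE 0.46, adjusted p = 2.71e-06), and Bpgm, an enzyme of red blood cells, 15.2, 19.6 and 12.4 CPM in 5xFAD and 905, 457 and 1903 CPM in 5xFAD/IRF8KO (log2 fold change 6.10, SE 0.86, adjusted p = 0.000288). Pf4 (log2 fold change 6.34, SE 0.52, adjusted p = 6.1e-06), Plekhb1 (log2 fold change 6.76, SE 0.75, adjusted p = 4.61e-05), Gsn (log2 fold change 6.43, SE 0.54, adjusted p = 7.05e-06), Mxd1 (log2 fold change 6.25, SE 0.49, adjusted p = 5.09e-06), Gsr (log2 fold change 6.17, SE 0.44, adjusted p = 3.32e-06) and Cd300lb (log2 fold change 5.88, SE 0.60, adjusted p = 2.8e-05) complete the 12. Of the 902 rises, 4 were on a marker list of other cells: Mbp, Aldoc, Pf4 and the astrocyte gene Gfap.

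The bounds of the sets ran through a continuous range of levels. Just inside, Brca2, Ndst1 and Sbk1 had 5.003 to 5.007 CPM in 5xFAD and were not called. Just outside, Plekhh3, Epm2a and Hist2h2be had 4.995 to 4.999 CPM, and Plekhh3 was called lower. Among genes with exactly 3 summed counts in 5xFAD 104 of 200 tested were higher, and among those with 4 it was 74 of 142.

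Most genes with 3 counts or fewer in 5xFAD had no count in 5xFAD/IRF8KO either, but a part of them was abundant. Of the 38931 genes 14130 had a count in any of the 12 libraries, 7015 had counts in 5xFAD/IRF8KO and 1101 reached 5 CPM there. Of the 1817 that passed the filter on low counts 1080 were higher, which is 59.4%. The set allows no other direction, and genes passed the filter through the groups in which they are expressed, so this share and the single calls restate the rule. They are a description, and no p-value against 5xFAD is printed for a gene of this set. The same limit holds for genes with a few more counts in 5xFAD, such as C3 and Fpr1 with 7 each and Flt1 with 4. Hbb-bs, Map2 and Mki67, also near 0 in 5xFAD, are further cases. The p-values printed for such genes are a description too. Counts over marker lists of other cells, which hold many such genes, are of the same kind. The number was 571, 577 and 668 without 5xFAD replicate 1, 2 or 3 and 642 with the sex-linked class as a covariate. Of the 1080, 906 (83.9%) were also higher in IRF8KO than in WT, a description under the same filter. On a marker list of other cells were 70 (6.48%).

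Of the 12 genes of this set with the highest level, 10 are genes of neutrophils or other myeloid cells. All 12 were also called higher in IRF8KO against WT. The genes passed the filter on low counts through the groups in which they are high, so these calls are a description too. S100a8, which encodes a subunit of calprotectin, had 31098, 32352 and 24621 CPM in 5xFAD/IRF8KO and 0.091, 0 and 0.518 CPM in 5xFAD. S100a9 (chr3:90692632-90695721), which encodes the other subunit, had 24302, 27098 and 19271 CPM in 5xFAD/IRF8KO. It was at 0 in 5xFAD and at least 1.43e+05-fold higher. Ltf, lactoferrin, had 17501, 22620.0 and 7824 CPM, Chil3 12336, 11904 and 16417, Camp, the cathelicidin gene, 8134, 9202 and 5845 and Lcn2, lipocalin 2, 5239, 5466 and 3089 CPM. Replicate 2 was highest for Ltf, Camp and Lcn2, and replicate 3 lowest. Chil3, which macrophages also express, was highest in replicate 3.

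Retnlg (6279.8, 8541 and 2944 CPM), Mmp8 (5124, 6896 and 2465 CPM), Cd177 (3246, 4375 and 1648 CPM) and Anxa1 (5343, 7763 and 3426 CPM) are the other neutrophil or myeloid genes among the 12 most abundant. All had their highest level in replicate 2 and their lowest in replicate 3 of 5xFAD/IRF8KO. The remaining 2 are haemoglobin genes, Hba-a2 (4726, 1546 and 9548 CPM) and Hbb-bt (3811, 1359 and 7795 CPM), which ran the other way and were highest in replicate 3.

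The neutrophil marker lists were split by stage. All 5 primary granule genes rose, among them Elane at 2691, 3598 and 1281 CPM and Mpo at 3443, 4575 and 934 CPM, as did all 8 secondary granule genes and 12 of 13 late genes. The late gene that was not called is Csf3r, which microglia express too, with 846, 789 and 643 CPM in 5xFAD and 622, 783 and 216 CPM in 5xFAD/IRF8KO (adjusted p = 0.478). Secondary granule genes took 7.29, 8.81 and 5.1% of gene counts in 5xFAD/IRF8KO and 2.52e-05, 0.000147 and 0.000104% in 5xFAD, late genes 6.62, 7.04 and 4.77% against 0.0781, 0.0772 and 0.0649%, and primary granule genes 0.634, 0.8 and 0.275%. Each list had its lowest share in replicate 3.

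Monocyte and border macrophage genes rose in part. Of 12 tested monocyte genes 7 were higher, with Ly6c2 at 0 CPM in all 3 5xFAD libraries and 1058, 1112 and 735 CPM in 5xFAD/IRF8KO (at least 5896-fold higher) and Hp at 1508, 2010.1 and 1186 CPM, and the list took 0.419, 0.492 and 0.29% of counts against 0.00182, 0.00134 and 0.00207%. Several of its genes, such as Hp, are also expressed by neutrophils. Of 16 border macrophage genes 8 were higher and 1, Cd209f (adjusted p = 0.0162), lower. Cd163 had 0, 0.377 and 0 CPM in 5xFAD and 55.1, 20.8 and 12.4 CPM in 5xFAD/IRF8KO (a 274-fold ratio of summed counts, exact 95% counting interval 75.7 to 2268) and F13a1 3.82, 3.39 and 1.04 CPM in 5xFAD and 413, 359 and 378 CPM in 5xFAD/IRF8KO (log2 fold change 6.99, SE 0.70, adjusted p = 2.34e-05). The list took 0.0233, 0.023 and 0.0164% in 5xFAD and 0.233, 0.2 and 0.232% in 5xFAD/IRF8KO.

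No dendritic cell gene was called higher. Of 5 tested genes 2 fell, Fscn1, with 253, 188 and 124 CPM in 5xFAD and 16.6, 11.4 and 21.5 CPM in 5xFAD/IRF8KO (log2 fold change -3.51, SE 0.34, adjusted p = 1.9e-05), and Itgae, which was at 0 in all 3 knockout libraries (at least 33.4-fold lower, adjusted p = 0.00729). The list's share of counts was 0.0244, 0.0196 and 0.0133% in 5xFAD and 0.00244, 0.00527 and 0.00264% in 5xFAD/IRF8KO. Nearly all of these counts in 5xFAD were of Fscn1, so the share does not describe the list as a whole. Of 10 tested B-cell and plasma cell genes 4 rose, 1 fell and 5 were not called. The list's share of gene counts was lower in 5xFAD/IRF8KO without overlap, with 0.0556, 0.0527 and 0.0278% against 0.107, 0.109 and 0.0859%. Ighm, the immunoglobulin M heavy chain gene, had 1096, 1039 and 786 CPM in 5xFAD and 387, 355 and 183 CPM in 5xFAD/IRF8KO and was not called (adjusted p = 0.057). It had most of the list's counts in both groups, so the lower share follows Ighm and not the list as a whole. Vpreb3 rose to 36.7, 27.4 and 27.2 CPM and Cd79a to 29.5, 39.4 and 10 CPM from 0, and so did Igkc and Ebf1. Ighd fell from 31.9, 38.6 and 36.2 CPM to 0 in all 3 (adjusted p = 0.0112). Of 6 tested T-cell and natural killer genes Nkg7 rose (log2 fold change 9.06, SE 1.05, adjusted p = 0.000162) and Klrd1 (adjusted p = 0.00371) and Lck (adjusted p = 0.0386) fell.

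Red blood cell genes rose in 10 of 11 cases. Hbb-bs, the adult beta globin gene, had 0.091, 0.754 and 1.04 CPM in 5xFAD and 25632, 8959 and 55883 CPM in 5xFAD/IRF8KO (log2 fold change 16.03, SE 1.91, adjusted p = 8.33e-05), and Alas2, the first enzyme of erythroid haem synthesis, 0 CPM in all 3 5xFAD libraries and 1902, 712 and 3849.9 CPM in 5xFAD/IRF8KO (at least 13047-fold higher). The list took 4.24, 1.45 and 9.12% of gene counts in the 3 5xFAD/IRF8KO libraries, with the highest share in replicate 3, and 0.000671, 0.000643 and 0.00109% in 5xFAD. The gene not called was Ermap. The paired globin genes are near-identical copies, and a read with several matches entered no gene, so their levels are uncertain. Of 9 mast cell and basophil genes none passed the filter on low counts.

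Genes of brain cells rose together with those of blood. All 15 neuronal genes were higher. Snap25, a synaptic vesicle fusion protein, had 0.91, 0.188 and 0.518 CPM in 5xFAD and 494, 326 and 1082 CPM in 5xFAD/IRF8KO (log2 fold change 9.97, SE 0.89, adjusted p = 1.09e-05), Map2 0.273, 0.188 and 0 CPM in 5xFAD and 68.8, 35.8 and 80.4 CPM in 5xFAD/IRF8KO (log2 fold change 8.11, SE 0.82, adjusted p = 2.62e-05) and Thy1, whose promoter drives the transgenes, 0.091, 0 and 0 CPM in 5xFAD and 46.2, 16.7 and 84.7 CPM in 5xFAD/IRF8KO (a 895-fold ratio of summed counts, exact 95% counting interval 160.4 to 35375). Replicate 3 was highest and replicate 2 lowest for all 3 genes, and for the list, which took 0.103, 0.0566 and 0.198% of counts against 0.000805, 0.000404 and 0.000881%.

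Oligodendrocyte genes rose in 10 of 13 cases and astrocyte genes in 12 of 14, and Mag, Trf, Cnp, Mfge8 and Slc1a3 were not called. Of 5 tested genes of oligodendrocyte precursors Bcan, Ptprz1 and Olig1 rose. Mobp, a myelin protein gene, had 3.28, 0.942 and 8.28 CPM in 5xFAD and 1082, 898 and 1375 CPM in 5xFAD/IRF8KO (log2 fold change 8.26, SE 0.69, adjusted p = 7.05e-06). Slc1a2, the astrocyte glutamate transporter, had 0.728, 1.13 and 2.59 CPM in 5xFAD and 202, 113 and 259 CPM in 5xFAD/IRF8KO (log2 fold change 7.27, SE 0.61, adjusted p = 7.05e-06). The lists took 0.535, 0.497 and 0.63% and 0.214, 0.173 and 0.262% of gene counts in 5xFAD/IRF8KO, against 0.0316, 0.0319 and 0.0356% and 0.0312, 0.0245 and 0.0294% in 5xFAD. Cnp was not called, with 106, 111 and 87 CPM in 5xFAD and 86.8, 139 and 224 CPM in 5xFAD/IRF8KO (adjusted p = 0.267).

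Choroid plexus genes rose in 4 of 6 cases, unevenly. Ttr, transthyretin, had 0.273, 0.377 and 6.73 CPM in 5xFAD and 1190.2, 1860.2 and 233 CPM in 5xFAD/IRF8KO (log2 fold change 9.46, SE 1.28, adjusted p = 0.000208) and Enpp2, autotaxin, 0.182, 0 and 0.518 CPM in 5xFAD and 1676, 1968 and 168 CPM in 5xFAD/IRF8KO (a 7789-fold ratio of summed counts, exact 95% counting interval 2665 to 37769). The list took 0.271, 0.343 and 0.0384% of gene counts in replicates 1, 2 and 3 of 5xFAD/IRF8KO and 4.19e-05, 0.00011 and 0.000881% in 5xFAD, so that replicate 3 was far lower than the other 2. Kl had 37.9, 55.5 and 6.03 CPM and Aqp1 100.3, 80.2 and 0 CPM, with 5xFAD at or near 0 for both, and the call of Aqp1 was lost in most of the alternative fits.

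Of the genes of vessels and meninges a part rose. The endothelial list's share of counts was 0.0907, 0.115 and 0.116% in 5xFAD and 0.0438, 0.0527 and 0.0473% in 5xFAD/IRF8KO. Most of these counts were of Bsg, with 977 ± 98.1 CPM in 5xFAD and 472 ± 60.5 CPM in 5xFAD/IRF8KO (SD, n = 3). The lower share therefore follows Bsg and does not describe the list as a whole. Of 10 tested endothelial genes Abcb1a, Slco1a4, Ly6c1 and Flt1 rose, the last with 0.273, 0 and 0.518 CPM in 5xFAD and 18, 16 and 32.5 CPM in 5xFAD/IRF8KO (log2 fold change 6.49, SE 1.24, adjusted p = 0.00235), and Bsg fell (log2 fold change -1.05, SE 0.23, adjusted p = 0.0056). Pecam1, which microglia and other leukocytes express as well, had 112, 141 and 118 CPM in 5xFAD and 0.343, 22.7 and 0.185 CPM in 5xFAD/IRF8KO and was not called (adjusted p = 0.0585). Of 5 mural genes Vtn and Acta2 rose, to 4.71, 13.6 and 41.5 and 15, 29.5 and 0.649 CPM. Of 4 fibroblast genes Slc6a13, with 3 counts in 5xFAD (a 78.6-fold ratio of summed counts, exact 95% counting interval 26.7 to 382), and Dcn rose, and Dcn was at 0 in replicate 1. Of 4 platelet genes Gp9 and Treml1 fell and Pf4 rose, and of 6 progenitor genes Cd34 and Cd48 fell and Kit and Myb rose.

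**Figure D4:**
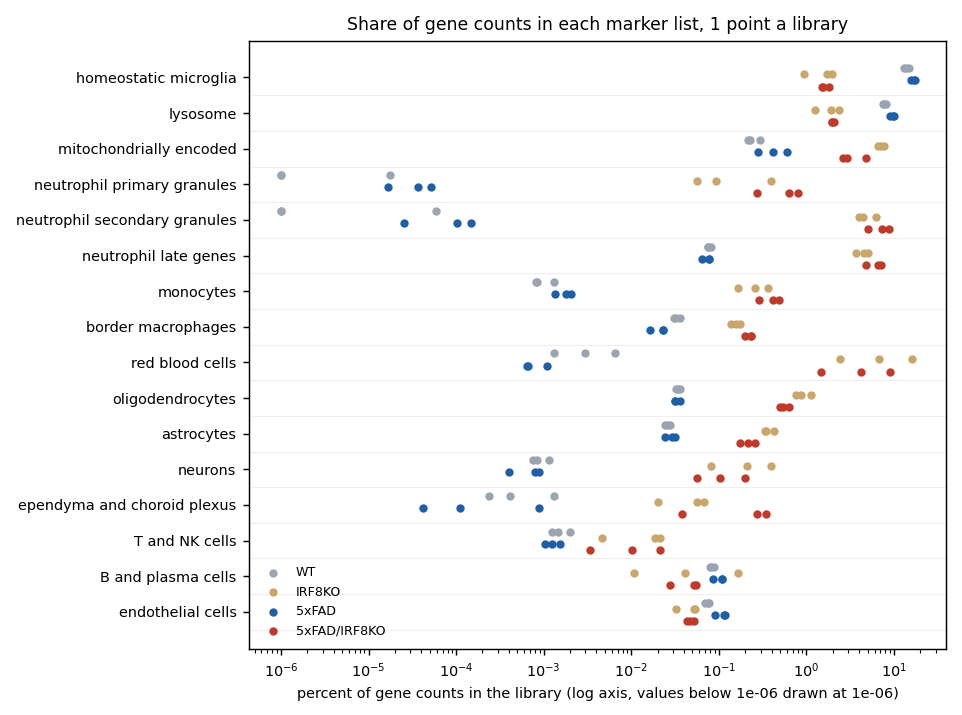
Share of all gene counts taken by marker lists (percent, log axis), with 1 point for each of the 3 libraries of a group at 9 months. Homeostatic genes take 15.7% or more in 5xFAD and at most 1.82% in 5xFAD/IRF8KO, and the neutrophil lists lie higher in both Irf8 knockout groups.

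For lists whose shares did not overlap between the groups the exact two-sided permutation test gave p = 0.1 in each case, the smallest that the design allows, and 0.117 after the Benjamini-Hochberg adjustment over the 49 lists compared. For lists without a call in one direction, edgeR gave none in that direction at an unadjusted p under 0.05 either, except 1 class I gene and 3 ribosomal protein genes, and DESeq2 called none except 1 ribosomal protein gene. Many of these lists hold genes near 0 in 5xFAD, which could hardly fall. For them the lack of falls follows from the level and is no check. The part that other cells' RNA plays in the changes of genes at 5 CPM or more was not tested.

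The effect of Irf8 loss within 5xFAD was set beside that in mice without the transgenes, whose libraries are all different. Across the 9276 tested genes at 5 CPM or more the log2 fold changes of 5xFAD/IRF8KO against 5xFAD and of IRF8KO against WT correlated at Pearson's r = 0.601 and Spearman's rho = 0.577, a description over genes that are not independent. Of the 1038 falls within 5xFAD 495 (47.7%) were also called lower in IRF8KO, which is 49.8% of the 994 falls there. Those 994 are 10.7% of the tested genes of the set. Over all 14604 tested genes, 8.68% were called lower and 19.6% higher in IRF8KO. Of the 902 rises 489 (54.2%) were shared, or 45.2% of the 1081 rises there, which are 11.7% of the tested genes. Of the falls 6 were called higher in IRF8KO, Cst7 among them, and of the rises 5 were called lower there: Adam10, Ankrd11, Ppp1r3b, Ssh2 and Tmem131l, named after their values were seen.

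**Figure D5:**
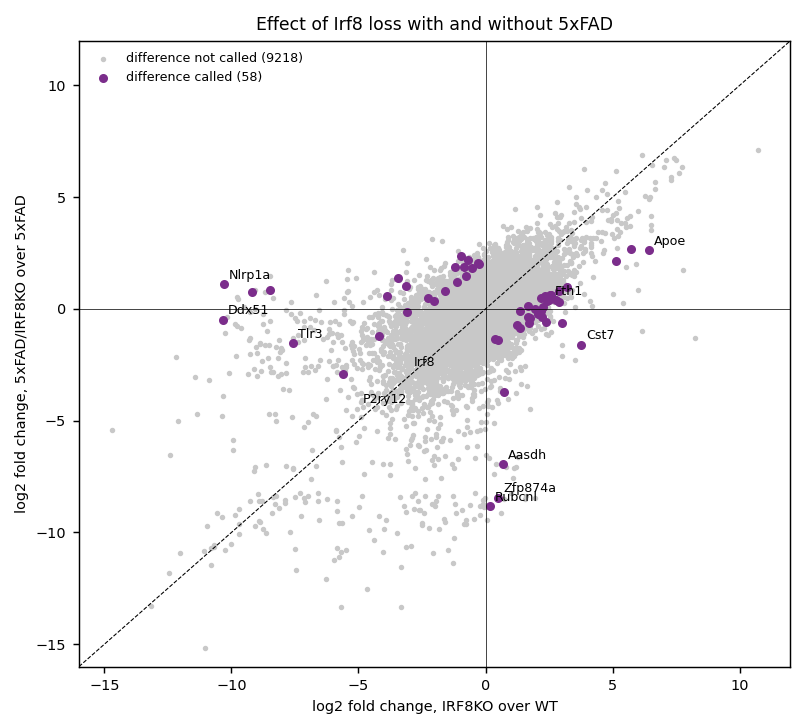
Log2 fold change of 5xFAD/IRF8KO against 5xFAD and of IRF8KO against WT for genes at 5 CPM or more in 5xFAD, with 1 point for each gene. Genes whose effects differ between the backgrounds are marked. Cst7 and Apoe lie higher in IRF8KO against WT than within 5xFAD.

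Few genes were called for a difference between the 2 effects, and a gene without this call is not thereby shown to have equal effects. An interaction test in the same edgeR model called 58 of 9276 genes, or 0.625%, with 35 more negative and 23 more positive within 5xFAD, and 1629 had an unadjusted p under 0.05. DESeq2 called 790. The edgeR count was 1 with the sex-linked class as a covariate, 7 with the replicate block, 212 without the filter and 216 in a fit on genes at 5 CPM or more alone. The edgeR count was 2 to 17 when any 5xFAD or WT library or replicate 1 of 5xFAD/IRF8KO was left out, and 105 to 169 without any IRF8KO library or without replicate 3 of 5xFAD/IRF8KO. Of the 35, 13 were ribosomal, respiratory chain or mitochondrial genes, and of the 58, Nlrp1a, Zbtb25, Ddx51 and Xrcc2 had no count in any IRF8KO library.

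Cst7 changed direction. Without the transgenes it rose from 9.06, 9.23 and 14.6 CPM (WT) to 132, 146 and 146 CPM (IRF8KO), a log2 fold change of 3.75, SE 0.44, adjusted p = 7.2e-05, and it fell within 5xFAD from 247, 568 and 865 to 228, 183 and 142 CPM. The difference between the effects was -5.35, SE 0.58, adjusted p = 0.0107, and it was called in all 18 alternative fits. The levels of the 2 knockout groups, 141 ± 8.14 CPM and 184 ± 43.1 CPM (SD, n = 3), lay closer together than the levels of WT and 5xFAD.

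Apoe rose in both backgrounds, by less within 5xFAD. The WT libraries had 399, 477 and 322 CPM and the IRF8KO libraries 43004, 27179 and 33096 CPM (log2 fold change 6.43, SE 0.41, adjusted p = 1.43e-06), and the difference of effects was -3.80, SE 0.47, adjusted p = 0.0113. This call was kept in 17 of 18 alternative fits and lost with the sex-linked class as a covariate. The knockout groups had 34426 ± 7996 CPM and 39086 ± 7844 CPM, and WT and 5xFAD 399.5 ± 77.6 CPM and 6329.9 ± 2491 CPM. Fth1, ferritin heavy chain, rose from 836 ± 132 CPM in WT to 4756 ± 816 CPM in IRF8KO and was not called within 5xFAD, and the difference was -2.10, SE 0.30, adjusted p = 0.0212.

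Several further differences were in genes of low level. Rubcnl, Zfp874a, Aasdh and Dnajc18 were called lower within 5xFAD and were not called in IRF8KO against WT. Zfp874a had 33.3, 24.5 and 23.8 CPM in 5xFAD and 0.0856, 0.0927 and 0 CPM in 5xFAD/IRF8KO, against 16.9, 19.4 and 4.86 CPM for WT and 9.83, 40.9 and 8.2 CPM for the knockout without the transgenes. Nlrp1a, a sensor gene of the inflammasome, had a difference of the opposite sign: WT libraries had 24.6, 21.4 and 23.1 CPM and IRF8KO libraries 0, against 12.1, 12.1 and 6.21 CPM in 5xFAD and 40.7, 9.17 and 15.8 CPM in 5xFAD/IRF8KO. The calls of the difference for these genes and for Zbtb25, Ddx51 and Xrcc2 were lost in 8 or more of the 18 alternative fits.

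Of the stress genes, Fos, Hspa1a and Hspa1b had more positive effects within 5xFAD. Fos lay at 119.7, 40.3 and 30.4 CPM for WT and 118, 71.9 and 71.4 CPM for IRF8KO, where it was not called, and rose within 5xFAD, and the difference was 6.49, SE 0.83, adjusted p = 0.0121. Hspa1b fell from 567, 157 and 130.1 CPM (WT) to 0, 0 and 0.256 CPM (IRF8KO), and within 5xFAD rose from 2.55, 1.32 and 3.62 to 16.7, 4.17 and 69.1 CPM (difference 15.01, SE 1.75, adjusted p = 0.0107). Hspa1a ran the same way (7.91, SE 1.40, adjusted p = 0.0404), and the 2 genes are near-identical copies. Mean levels of both genes were highest in WT, with 285 ± 245 CPM for Hspa1b and 67.8 ± 65.8 CPM for Hspa1a. Tlr3, the receptor for double-stranded RNA, fell in IRF8KO, with 0, 0.153 and 1.41 CPM against 114, 89.4 and 112 in WT, and was not called within 5xFAD, with 77.7, 57.3 and 64.2 CPM in 5xFAD and 29.5, 22.6 and 16.9 CPM in 5xFAD/IRF8KO (difference 6.05, SE 1.06, adjusted p = 0.0395).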

How the data were processed

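RNA from sorted microglia was amplified and sequenced with paired ends, per the labels' protocols. The authors deposited 1 file of raw read counts per gene for each library, with column 2, counted without strand, used here. The submitters' processing notes name bcl2fastq, STAR 2.5.2b, Picard 2.17.11, Subread, featureCounts and the build mm10. The files have the layout of STAR's gene counts, and for the annotation no name is given in the sources used here. From each file the 4 lines of reads in no single gene were left out, so that 56.8% to 78.56% of reads of the 6 libraries entered as counts. Gene names and GRCm38 positions came from GENCODE M21, in which 54079 of 54146 identifiers were found, 52480 with the same version. Promoter windows came from RefSeq (GRCm38.p6).

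Counts of the 12 libraries aged 9 months were filtered with filterByExpr (minimum count 10), scaled by the trimmed mean of M-values and fitted in 1 model with edgeR 4.0.16 (limma 3.58.1, R 4.3.3), which left 8 residual degrees of freedom. The contrasts were 5xFAD/IRF8KO against 5xFAD, IRF8KO against WT, and their difference, each by the quasi-likelihood test with the Benjamini-Hochberg adjustment. The step was tested on simulated data with 200 changed genes. Shares of marker lists were compared by exact permutation tests with scipy 1.17.1 over 49 lists. Tables were handled with pandas 2.3.3 under Python 3.11.15 and figures drawn with matplotlib 3.10.9. A level of 0 in a whole group was given as a bound from 3 counts over the group, and 1 to 3 counts as a ratio with an exact 95% interval.

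The members and the gene lists were chosen with earlier results of these data known. Named genes are Irf8 and Batf3, the 12 largest falls and rises without overlap among genes at 5 CPM or more, the 12 most abundant genes of the near-absent set, the 5 largest differences of effect in each direction, up to 4 members of each list by level and up to 4 by fold, and a set of well-known microglial, amyloid and cell marker genes. Other members of small list counts, and the genes marked so in the text, were named after their values were seen. A few genes that this rule names are not reported here. The alternatives were DESeq2's size factors, DESeq2 1.42.0, no filter, the 6 libraries alone, a fit on genes at 5 CPM or more, a replicate block, the class of sex-linked transcripts as a covariate, other bounds of the sets, and leaving out each library.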

Additional observations from a re-analysis of the deposited data

Results flagged for a closer look

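The effect of Irf8 loss differed between 5xFAD and mice without the transgenes, by the interaction test in edgeR, for each gene below. Values are log2 differences, the effect within 5xFAD minus the effect without it, and those for genes at 0 in 1 group depend on the prior count and are no bounds. Cst7 had -5.35 and Apoe -3.80, with the call kept in 18 and 17 of 18 alternative fits. Fth1 had -2.10, kept in 12 of 18. Rubcnl had -9.00, Zfp874a -8.94, Aasdh -7.63 and Dnajc18 -4.47, kept in 9, 9, 7 and 5 of 18.

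Positive differences were 15.01 for Hspa1b, 7.91 for Hspa1a and 6.49 for Fos, with the call kept in 15, 8 and 14 of 17 fits. Tlr3 had 6.05, kept in 8 of 18. Nlrp1a had 11.41, Zbtb25 9.94 and Ddx51 9.87, each kept in 10 of 18, and Xrcc2 had 9.35, kept in 9 of 18. These 4 genes were at 0 in all IRF8KO libraries. Outlying samples were not tested for in groups of 3 libraries.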

How the results depend on the processing

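Of 237 called genes named in the text, 185 were called in every alternative and none changed direction. For single genes the 6 libraries compared were left out in turn. Leaving out 1 of them ended the call of 43: Adam10, Aph1b, Aplp2, Aqp1, C5ar1, Cbl, Cd209f, Cd79a, Clec7a, Cmklr1, Csf2rb2, Cxcl2, Dcn, Dnaja1, Etv5, Fcrla, H2-Q4, Hsp90ab1, Hspa1a, Hspa1b, Ifit2, Igkc, Il34, Il3ra, Itgb2, Lck, Ly6c1, Mki67, Myb, Nr4a1, Nrros, Psenen, Rpl10a, Rps19bp1, Rrm2, Slc11a2, Slco1a4, Smad7, Stat3, Tgif1, Tlr7, Tlr9 and Treml1. Another 9 lost it in other fits only. With 1 library of a group left out, the 2 that remain estimate its level and the spread is pooled over all groups. The cause was not tested.

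Leaving out 1 of the 6 libraries compared gave 2325 to 4055 called genes of all tested, 651 to 1170 falls and 481 to 860 rises among genes at 5 CPM or more and 571 to 1069 rises in the near-absent set. Without 1 WT or IRF8KO library these were 3387 to 4598, 859 to 1367, 663 to 982 and 934 to 1080. Differences of effect numbered 2 to 169 over all 12. The lowest counts came without 5xFAD replicate 2 (for differences of effect also WT replicate 2), or replicate 1 for the near-absent set. With the sex-linked class as a covariate the counts were 2481, 639, 544, 642 and 1, and this covariate separates all 3 5xFAD/IRF8KO libraries from 5xFAD replicates 1 and 2. A bound of 20 CPM gave 555 rises and a bound of 0 counts 544. Differences of effect numbered 212 without a filter, 216 in a fit on genes at 5 CPM or more, and 790 with DESeq2. That fit moved the median log2 fold change of the set from -0.21 to -0.0837. The covariate moved it to -0.0584 and the replicate block to -0.318.

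Replicate numbers did not pair the libraries: deviations of same-numbered libraries correlated at 0.00978, 0.00336 and 0.0397 across genes, and replicate 1 of 5xFAD correlated best with replicate 2 of 5xFAD/IRF8KO (0.0307). With the replicate block 3332 genes were called, 963 lower and 747 higher among genes at 5 CPM or more, 807 higher in the near-absent set, and 7 differences of effect.

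Of the uncalled genes named, 15 were called in 1 or more alternatives: Axl, Btg2, Ddx3y, Eif2s3y, H2-D1, Hspa8, Ifit3, Ighm, Il1a, Inpp5d, Itgam, Ncf1, Pecam1, Tgfbr2 and Tlr3. The smallest adjusted p of each lay between 1.84e-05 for Pecam1 and 0.0498 for Hspa8. Among genes that were not called, the sign turned for Csf3r (0.031), Ddx51 (0.165), Slc1a3 (-0.128) and Xist (2.074) with the sex-linked covariate and for Tmsb4x in the fit on genes at 5 CPM or more (0.085). Leaving out 1 library gave -0.393 to 0.035 for Spi1, positive without 5xFAD/IRF8KO replicate 3, and -0.092 to 0.019 for Tmsb4x, positive without 5xFAD replicate 2 (0.016) or 5xFAD/IRF8KO replicate 3. The depth of 1928739 counts in 5xFAD replicate 3 limits what can be called absent there.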
